A study of Mus musculus with 6 samples.

Results

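The small leucine-rich proteoglycans are secreted matrix proteins built from leucine-rich repeats, many of which carry glycosaminoglycan chains. They coat collagen fibrils, set fibril width and spacing, and hold growth factors such as TGF-beta in the matrix. In skin they are known mainly as products of dermal fibroblasts. The 10 members described here, Ogn, Dcn, Bgn, Lum, Fmod, Omd, Aspn, Prelp, Epyc and Podn, were taken from the 19938 genes tested. They were chosen by gene family with the differences between NRG1 and untreated arrays already known. The values of that contrast are therefore given for the members as a description and not as a test. Each member had 1 probe set paired with that gene alone, so no choice between probe sets was needed.

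RNA came from Melan-Ink4a, an immortal line of skin melanocytes of strain C57BL/6J with the genotype Ink4a-ARF1 null, which treated and untreated cells share. The NRG1 group was kept with 10 nM NRG1-beta1, a ligand of the receptor ERBB3, for 21 days, and the untreated group without it. The groups follow the sample titles. The treatment protocol recorded for the samples titled untreated repeats the NRG1 treatment word for word, and the labels give no time in culture for those cells, so what the untreated samples received rests on their titles and on a source name without NRG1. Both groups grew in 10% serum with cholera toxin (200 pM) and TPA, a phorbol ester (200 nM), up to 90% confluence at harvest. There were 3 arrays per group (Affymetrix Mouse Gene 1.0 ST). The series addresses NRG1/ERBB3 signalling in melanocytes. The groups are 1 cell line, and separate cultures for the 3 samples of a group are not stated in the labels. Errors and p-values therefore measure the spread among these 6 arrays alone, and that spread may be technical. Levels are the deposited log2 array signals, in which 1 unit is 2-fold. A level of 1 probe set does not measure more or less RNA than that of another, because probes differ in brightness. Where a signal is ranked among all genes, the rank describes the array signal only.

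Ogn and Prelp were lower with NRG1, and the other 8 members differed little. Ogn, which encodes osteoglycin (mimecan), fell 5.27-fold, and Prelp, which encodes a heparin-binding member with a basic amino terminus, fell 1.42-fold. They were 2 of 10 members with an adjusted p under 0.05 (limma, Benjamini-Hochberg over all genes), both downwards. Over all 19938 genes that threshold was passed by 20.9%, with 8.56% that fell and 12.3% that rose. No member rose, also at an unadjusted p under 0.05 (limma, 0 of 10). At that unadjusted threshold 3 of 10 fell, Epyc beside Ogn and Prelp. Because the members were chosen with this contrast known, nothing is read from these counts. The median difference over the 10 members was -0.082 on the log2 scale, beside -0.029 over all genes.

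Promoter sequences are shown for the members that fell, Ogn and Prelp, and for Aspn and Omd, which lie beside Ogn on chromosome 13 and were not called. Each runs from 250 bases before to 50 bases after an annotated start site, taken from RefSeq (GRCm38.p6), and is printed 5′ to 3′ on the strand of the gene. They lie at chr13:49607765-49608064 (plus strand) for Ogn, chr1:133921352-133921651 (minus strand) for Prelp, chr13:49544193-49544492 (plus strand) for Aspn and chr13:49582212-49582511 (plus strand) for Omd. Capitals mark matches to CANNTG, the E-box of basic helix-loop-helix factors as a class. MITF, the central transcription factor of melanocytes, belongs to that class but does not bind every form of the motif.
Ogn: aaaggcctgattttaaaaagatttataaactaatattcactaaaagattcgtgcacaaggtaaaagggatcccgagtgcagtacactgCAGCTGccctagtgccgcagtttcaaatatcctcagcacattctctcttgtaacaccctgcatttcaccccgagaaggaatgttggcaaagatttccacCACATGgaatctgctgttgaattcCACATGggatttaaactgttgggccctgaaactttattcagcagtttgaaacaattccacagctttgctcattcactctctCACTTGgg
Prelp: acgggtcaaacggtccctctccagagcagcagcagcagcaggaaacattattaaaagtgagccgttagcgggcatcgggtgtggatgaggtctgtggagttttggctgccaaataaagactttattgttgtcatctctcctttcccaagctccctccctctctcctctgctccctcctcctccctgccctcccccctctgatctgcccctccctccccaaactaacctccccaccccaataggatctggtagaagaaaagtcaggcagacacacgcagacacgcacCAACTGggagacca
Aspn: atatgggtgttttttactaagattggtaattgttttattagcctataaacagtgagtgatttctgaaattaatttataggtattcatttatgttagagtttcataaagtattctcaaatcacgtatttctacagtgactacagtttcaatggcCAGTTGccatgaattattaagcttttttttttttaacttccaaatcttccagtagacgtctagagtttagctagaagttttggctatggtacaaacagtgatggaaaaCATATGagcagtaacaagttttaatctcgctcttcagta
Omd: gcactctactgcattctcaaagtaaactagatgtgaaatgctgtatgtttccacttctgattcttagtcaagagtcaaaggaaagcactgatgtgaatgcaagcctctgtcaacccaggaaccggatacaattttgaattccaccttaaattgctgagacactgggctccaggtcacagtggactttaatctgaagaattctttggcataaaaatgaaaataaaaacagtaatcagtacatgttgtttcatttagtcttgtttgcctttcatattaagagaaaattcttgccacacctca

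The Ogn promoter held 4 E-boxes, the Aspn promoter 2, the Prelp promoter 1 and the Omd promoter none. The motif reads the same on both strands and was present in 72.3% of 32817 promoters of that length. At 2 of the 4 places in Ogn, at positions -63 and -39 from the start site, the letters were CACATG, which is CATGTG on the opposite strand. CATGTG, a form of E-box that MITF can bind, was found on either strand in 14.2% of all promoters and in none of the other member promoters in the table. The search did not weigh the bases beside the motif. At both places in Ogn these were C before and G after CATGTG, so the letters alone do not mark a site of MITF. The table holds a promoter for 8 of the 10 members, and none is printed for Dcn or Lum. Other motifs searched on both strands were CACGTG, also an E-box (7.15% of all promoters), the TATA box TATAAA (13.6%), the AP-1 site TGANTCA (7.81%), the FOXO site TGTTTAC (3.65%), the ETS core CCGGAAG (8.86%) and the SMAD motif GTCTAGAC (0.213%). Of these, the TATA letters occurred at 2 overlapping places in Ogn (positions -229 and -227) and at 2 in Aspn, and the FOXO letters once in Epyc. A match of letters is a description and does not show that a factor binds.

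Ogn belongs to class III of the family, whose members are known from cornea, bone and cartilage. Its levels with NRG1 were 5.95, 5.78 and 6.18 in replicates 1 to 3, and those without were 8.57, 8.40 and 8.13. All 3 NRG1 arrays were lower than all 3 untreated arrays, with a gap several times wider than the range of either group. The means were 5.97 ± 0.201 and 8.37 ± 0.222 (SD, n = 3 each), a difference of -2.40 ± 0.123 (SE) on the log2 scale with a 95% interval from -2.67 to -2.13. On the linear scale 19% of the untreated level was left, and the interval of the fall ran from 4.36-fold to 6.37-fold. Of all 19938 genes, 5 had a lower difference. The standard error of Ogn was wider than the median over all genes (0.071). Its mean with NRG1 lay near the lower quartile of the mean signals of all genes (5.96). Array signals are compressed at their low end, so that the fall could be understated.

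Epyc, which encodes the cartilage proteoglycan epiphycan, also of class III, stood at 4.86, 4.89 and 5.07 with NRG1 and at 5.14, 5.23 and 5.01 without. The groups overlapped, since the highest NRG1 value exceeded the lowest untreated value. Its difference was -0.18 ± 0.08 (SE), with a 95% interval from -0.36 to -0.0062, and it was not called over all genes.

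**Figure D1:**
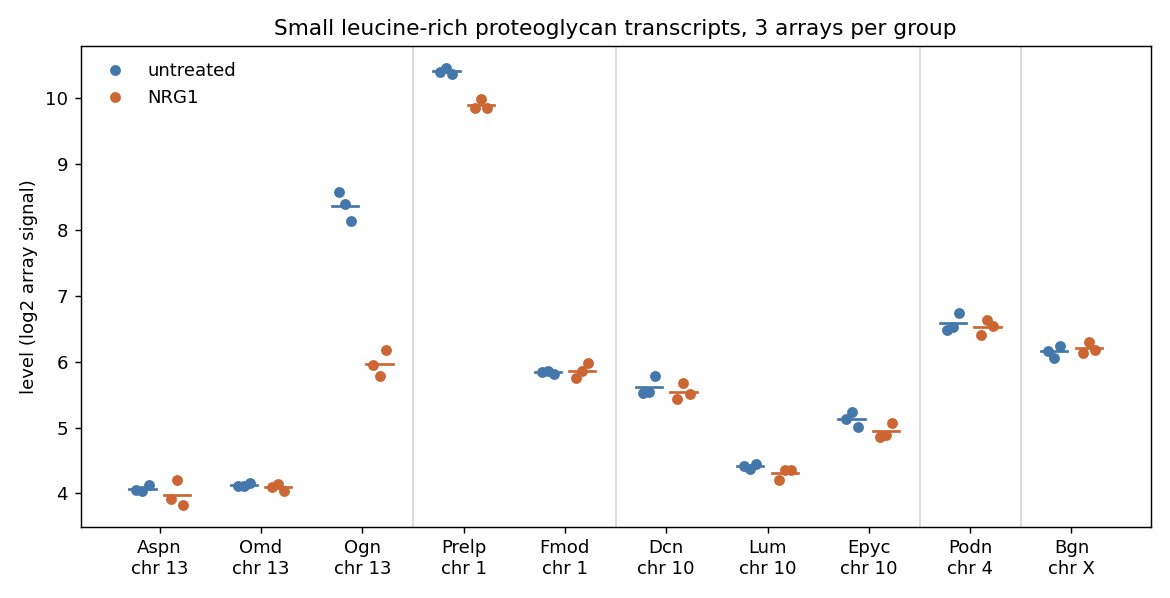
Levels of the 10 small leucine-rich proteoglycan transcripts (vertical axis, log2 array signal) on the 3 untreated (blue) and 3 NRG1 arrays (orange), with bars at the group means and grey lines between chromosomes. Ogn drops from a mean of 8.37 to 5.97 and Prelp from 10.41 to 9.90, while the groups lie close together for the other members.

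Class II holds the keratan sulfate proteoglycans Lum and Fmod, which bind collagen and limit fibril width, the bone protein gene Omd, and Prelp, which ties collagen to the heparan sulfate of basement membranes. Prelp was measured at 9.85, 9.99 and 9.86 with NRG1 and at 10.40, 10.46 and 10.37 without. Its groups did not overlap, and they were narrow beside the distance between them. The means were 9.90 ± 0.0801 and 10.41 ± 0.048 (SD, n = 3 each), a difference of -0.51 ± 0.065 (SE) with a 95% interval from -0.65 to -0.36. NRG1 cells kept 70.3% of the untreated Prelp level on the linear scale, and 328 called genes fell more steeply. Hspg2, which encodes perlecan, a heparan sulfate proteoglycan of basement membranes that PRELP binds, rose by 0.87 ± 0.0625 (SE; limma, adjusted p = 4.94e-06).

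Lum, the lumican gene, read 4.20, 4.35 and 4.35 with NRG1 against 4.42, 4.38 and 4.45 without. All its NRG1 values were below the untreated ones, by a small margin, and the difference of -0.11 ± 0.065 (SE) was not called. Ogn, Prelp and Lum were the 3 of 10 members whose groups did not overlap, beside 36.7% of all genes. Fmod, the fibromodulin gene, read 5.75, 5.85 and 5.98 against 5.85, 5.86 and 5.81, with the untreated values inside the range of the NRG1 values. Omd, the osteomodulin gene, read 4.09, 4.14 and 4.04 against 4.11, 4.11 and 4.15, and its groups overlapped as well. The differences were 0.023 ± 0.07 for Fmod and -0.034 ± 0.059 for Omd (SE).

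Class I holds Dcn and Bgn, whose proteins carry chondroitin or dermatan sulfate chains and bind collagen and TGF-beta, and Aspn, which encodes asporin, a relative with a stretch of aspartates. Dcn, the decorin gene, read 5.44, 5.67 and 5.51 with NRG1 and 5.52, 5.54 and 5.78 without. Bgn, the biglycan gene, read 6.14, 6.31 and 6.18 with NRG1 and 6.17, 6.06 and 6.24 without. Neither group stood above the other in these genes. Aspn read 3.91, 4.20 and 3.83 with NRG1 and 4.05, 4.03 and 4.13 without, and NRG1 replicate 2 alone exceeded every untreated value. Their differences were -0.074 ± 0.0885 for Dcn, 0.051 ± 0.0723 for Bgn and -0.091 ± 0.0922 for Aspn (SE). Podn, which encodes podocan, of a class apart from these, read 6.41, 6.63 and 6.55 with NRG1 and 6.49, 6.53 and 6.74 without, a difference of -0.053 ± 0.085.

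For the 8 members that were not called, differences ran from -0.18 to 0.051, with 6 below 0 and 2 above it. The widest fall inside any of their 95% intervals was 1.28-fold and the widest rise 1.16-fold. A miss of the threshold does not show that these genes did not change. Their values lay between 3.83 and 6.74 on all arrays. The mean signal ranked below the median signal of all genes (7.17) for all 8 and below the lower quartile for 6 of them, Bgn and Podn being the 2 above it. These ranks also depend on the probes and do not give the amount of transcript. Whether the signals include any transcript was not measured, since the table has no detection values, and differences near the low end of the scale, where Aspn and Omd lie, can be understated.

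Several members lie in clusters in the mouse genome, and Ogn has members beside it that were not called. In the order of GRCm38.p6, Ecm2, Aspn, Omd, Ogn and Nol8 follow each other on chromosome 13. The differences along this stretch were 0.11 ± 0.07 for Ecm2, which encodes a leucine-rich matrix protein, -0.091 for Aspn, -0.034 for Omd, -2.40 for Ogn and -0.052 ± 0.059 for Nol8, which encodes a nucleolar protein (SE). Ogn was the one gene of the 5 that was called. Ecm2, Aspn and Omd had untreated means of 3.56, 4.07 and 4.12, near the low end of the scale, where a fall could be missed. Nol8 stood at 7.99. On chromosome 1 Prelp has no other member next to it and is preceded by Optc, the opticin gene, with means of 5.79 in NRG1 and 5.65 in untreated cells (difference 0.14 ± 0.0862, SE), and Fmod lies further along. Dcn and Lum are neighbours on chromosome 10, where Kera, the keratocan gene, and Epyc follow, and none of these 4 was called. Beside Bgn on chromosome X, Haus7 had a difference of 0.031 and Atp2b3 of -0.016. Beside Podn on chromosome 4, Slc1a7 had a difference of -0.13. Gm10754, beside Epyc, had a difference of 0.026, and none of these 4 neighbours was called.

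**Figure D2:**
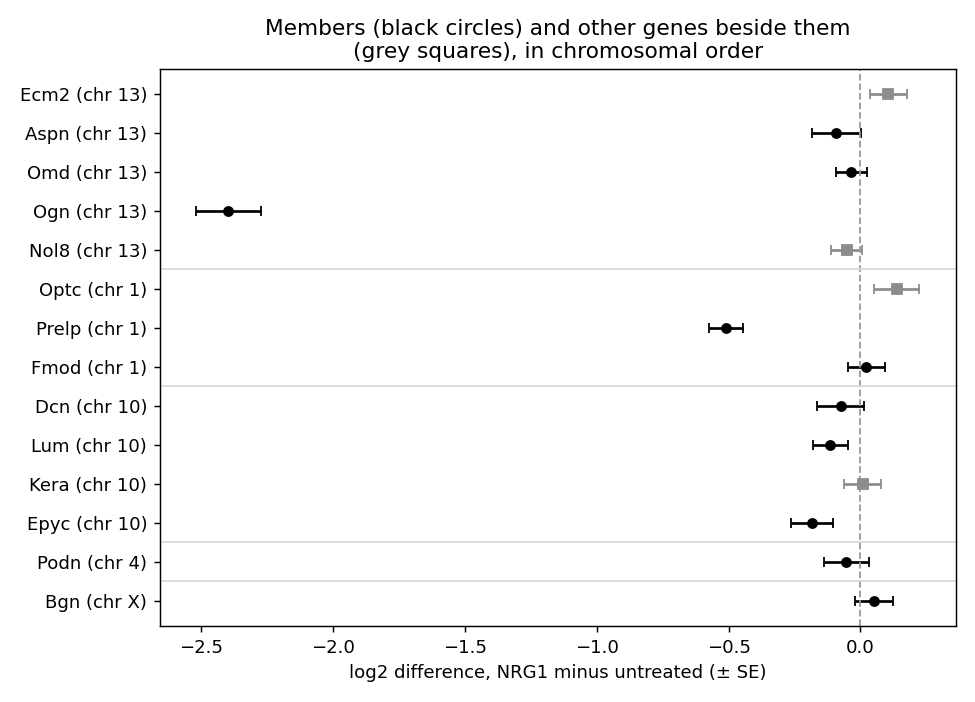
Log2 differences, NRG1 minus untreated, with standard errors, for the 10 members (black circles) and for Ecm2, Nol8, Optc and Kera beside them (grey squares), in chromosomal order with lines between chromosomes. Ogn at -2.40 stands beside Omd at -0.034 and Nol8 at -0.052, and Prelp at -0.51 beside Optc at 0.14. Signals of Ecm2, Aspn and Omd were near the low end of the scale, where a fall could be missed.

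The genes whose profile over the 6 arrays was nearest to that of Ogn were Gpm6a, Aoah, Plxnc1, Slc24a4 and Prkcq. The measure was the Euclidean distance between log2 profiles centred on their own mean, at 0.433, 0.466, 0.484, 0.545 and 0.585 in that order. The differences of these 5 genes ran from -2.54 for Plxnc1 to -2.04 for Prkcq. Gpm6a, which encodes a membrane glycoprotein of neurons, was at 10.02, 10.11 and 10.12 with NRG1 and at 12.43, 12.39 and 12.43 without. Its replicates lay closer together than those of Ogn (SD 0.0553 and 0.0273). A distance over 6 arrays in 2 groups mostly reflects the size of the difference between the groups.

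**Figure D3:**
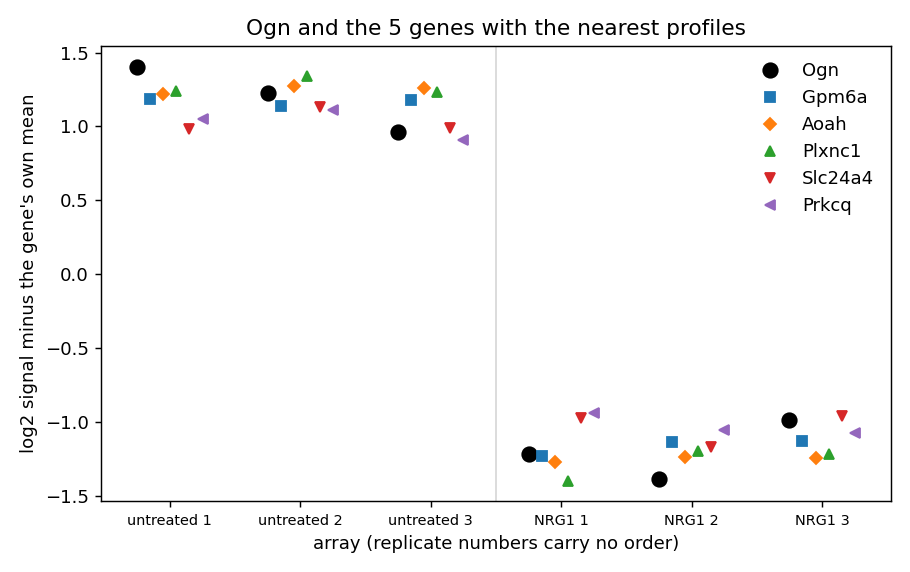
Log2 signal minus the gene's own mean (vertical axis) on each of the 6 arrays for Ogn (large black circles) and the 5 genes with the nearest profiles. All 6 genes lie above 0 on the 3 untreated arrays and below 0 on the 3 NRG1 arrays, and Ogn varies more within each group than Gpm6a.

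Other leucine-rich proteoglycan genes outside the 10 members were nearly all uncalled. Of 9 measured, 1 rose and 0 fell (1 and 0 also at an unadjusted p under 0.05), with a median difference of -0.003. The rise was that of Chadl, which encodes a chondroadherin-like protein, by 0.41 ± 0.093 (SE) on the log2 scale (limma, adjusted p = 0.0105). The levels of Chadl were 7.60, 7.74 and 7.48 with NRG1 and 7.10, 7.12 and 7.38 in untreated cells, and the groups did not overlap.

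The enzymes that build the chains of Dcn and Bgn moved in both directions, more often up. Over all genes 12.3% rose and 8.56% fell, the shares to set beside this list and those that follow. These lists were chosen with earlier results of these data known, so nothing is read from their counts. Of 30 measured genes of chondroitin and dermatan sulfate synthesis, 9 rose and 2 fell, with a median difference of 0.045. Chst11, which encodes the main sulfotransferase at position 4 of chondroitin, rose 5.88-fold. Its levels were 8.93, 8.80 and 8.72 with NRG1 and 6.31, 6.07 and 6.41 without (limma, adjusted p = 4.52e-08). The dermatan sulfotransferase gene Chst14 rose by 0.63, the xylosyltransferase gene Xylt1, whose product starts the chains, by 0.61, and the chain polymerase gene Chsy1 by 0.58. Chsy3, a related polymerase gene, fell 2.15-fold (limma, adjusted p = 7.21e-07), and the sulfate donor transporter gene Slc35b3 fell by 0.33 (adjusted p = 0.0226). The Slc35b3 call ended without NRG1 replicate 1 or 2 or without untreated replicate 2 or 3 (adjusted p from 0.0648 to 0.0844). Of 12 genes of keratan sulfate synthesis, the chain type that osteoglycin, lumican and fibromodulin can carry, 3 rose and 1 fell, with a median of 0.078. B4galt1 rose by 0.40, B3gnt2 by 0.36 and St3gal2 by 0.25, and St3gal1 fell by 0.35. The St3gal2 call (limma, adjusted p = 0.0295) ended without NRG1 replicate 1 or 2 or untreated replicate 1, under the replicate block and after quantile normalization (adjusted p from 0.057 to 0.127).

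Genes for collagens and matrix proteins that the family binds were called more often as higher than as lower. Of 21 measured, 7 rose and 1 fell, with a median of 0.059, and after quantile normalization 7 rose and 3 fell. Thbs1 rose 5.36-fold and Fn1, the fibronectin gene, 5.22-fold, while the collagen genes Col2a1 and Col1a1 rose 2.19-fold and 1.81-fold (limma, adjusted p = 7.92e-06 and 2.95e-06). Col1a2, whose product joins that of Col1a1 in type I collagen, differed by -0.27 ± 0.0885 (SE) and was not called (limma, adjusted p = 0.0551). It was called as lower in 8 of the 15 alternative settings, with an adjusted p from 0.0134 to 0.19 over all of them. The fall was that of Matn1, at -0.28 (adjusted p = 0.0209), and it was lost without NRG1 replicate 1 or 2 or untreated replicate 1 or 3 (adjusted p from 0.0594 to 0.0653). Of 16 genes for collagen processing and cross-linking, 11 rose and 1 fell, with a median of 0.44. Tgm2, the transglutaminase gene, rose 3.06-fold the lysyl oxidase gene Lox 2.32-fold, the prolyl hydroxylase gene P4ha1 1.89-fold and Loxl3, a relative of Lox, 1.66-fold. Pcolce2, a procollagen protease enhancer gene, had a level of 8.76 in NRG1 and 10.56 in untreated cells, a difference of -1.80 ± 0.0965 (SE; limma, adjusted p = 6.12e-07).

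Proteases known to cut members of the family rose or were not called. Of 18 measured, 7 rose and 0 fell (7 and 0 also at an unadjusted p under 0.05), with a median of 0.059. Adamts1 rose 8.72-fold, Adamts5 2.91-fold, Tll1 2.28-fold and Adamts4 2.27-fold. Bmp1, whose product trims the propeptides of biglycan and osteoglycin, rose by 0.44 ± 0.0611 (SE; limma, adjusted p = 0.000495). Of 17 growth factor genes, 6 rose and 1 fell, with a median of 0.037. Tgfb2, one of the TGF-beta genes whose products decorin and biglycan bind, rose 2.27-fold. Pdgfb, Pdgfa and Vegfa rose by 0.84, 0.69 and 0.55 on the log2 scale, and the fall was that of Ccn4 by 0.49 (adjusted p = 0.000743). Of 21 receptor genes, 7 rose and 2 fell, with a median of 0.021. Itga1 and Itga2, genes of integrins that bind collagen, rose 3.89-fold and 3.41-fold. Lrp1, whose product takes up decorin, rose 2.51-fold, and the TGF-beta receptor gene Tgfbr2 1.91-fold. Met, the gene of a receptor that decorin binds, fell 1.78-fold (limma, adjusted p = 5.16e-06), and P2rx4 fell by 0.22 (adjusted p = 0.0286). The P2rx4 call ended under the replicate block and without NRG1 replicate 1 or 3 or untreated replicate 1 or 2 (adjusted p from 0.0509 to 0.107).

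**Figure D4:**
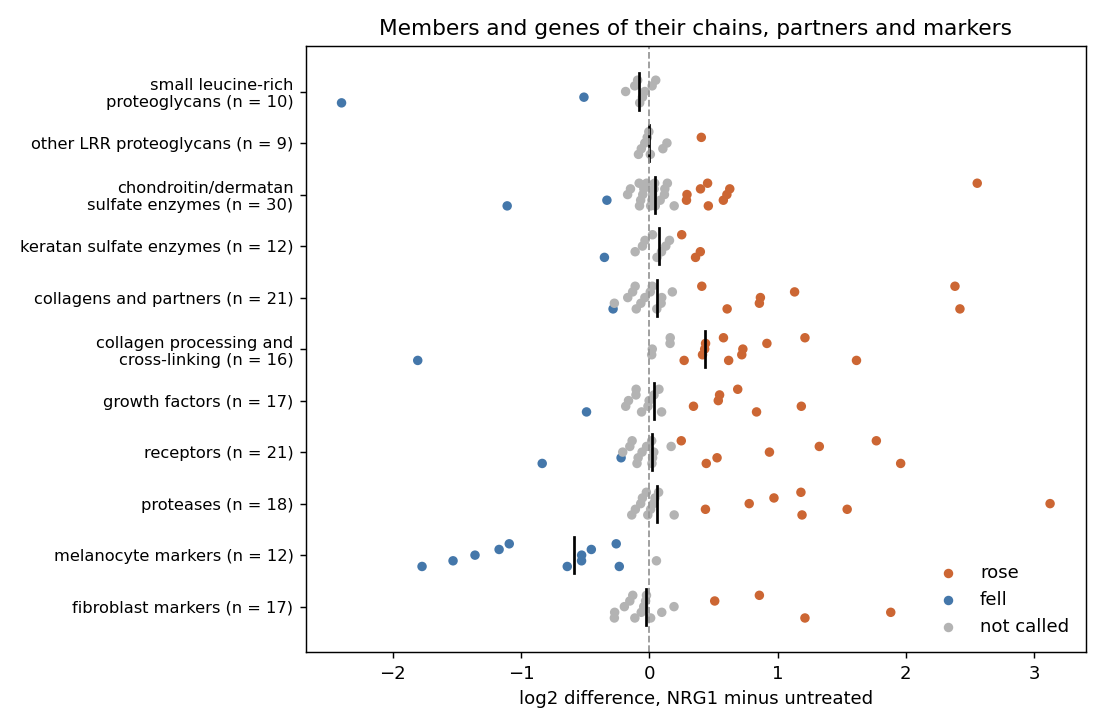
Log2 differences, NRG1 minus untreated (horizontal axis), of the 10 members and of genes for their chains, partners, receptors and proteases, with melanocyte and fibroblast markers below. Each point is a gene, orange where it rose, blue where it fell and grey where it was not called, and black bars are medians. The members lie near 0 except Ogn and Prelp, while cross-linking enzymes have a median of 0.44 and melanocyte markers of -0.58.

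Markers of melanocytes and of other cell types were read to check the label. None of 12 melanocyte markers had a signal below the median signal of all genes, a rank that also depends on the probes and does not show how many cells of a type were present. Of the 12, 11 fell and 0 rose with NRG1 (0 rose also at an unadjusted p under 0.05). Their mean level over the list was 10.98 to 11.02 on the NRG1 arrays and 11.78 to 11.82 on the untreated arrays. The falls ran from 0.23 for Dct to 1.77 for Oca2, with Mitf at 0.53 (limma, adjusted p = 8.50e-05). Ednrb, Gpr143, Kit, Mlana, Pmel, Slc45a2, Tyr and Tyrp1 fell in between, and Sox10 was not called, at 0.056. Of 17 fibroblast markers, 13 had a signal below that median, 4 rose (Postn, Lox, Col1a1 and Fbln1) and 0 fell (limma), with 4 higher and 2 lower at an unadjusted p under 0.05. The median difference of the fibroblast list was -0.028, and 10 of its 17 genes had a difference below 0, Dpt at -0.27 among them. The summed signal of the list was 10.84 to 10.96 on the log2 scale without NRG1 and 11.20 to 11.22 with it, a sum in which bright probe sets weigh most, and among these Col1a1 rose. Of 10 chondrocyte and osteoblast markers, 8 had a signal below the median, 2 rose, Col2a1 and Col9a1, and 0 fell. At an unadjusted p under 0.05, 2 of them were higher and 1 lower, Cytl1 at -0.22. None of 8 keratinocyte markers was called by limma or passed an unadjusted p under 0.05. Of 5 Schwann cell markers 2 rose, Gfap and Cdh19, and 0 fell. Without adjustment, at p under 0.05, 2 of the 5 were higher and 2 lower, Egr2 and Pmp22, both at -0.15. Of 8 endothelial and immune markers 1 rose, Cd68, and 0 fell. Without adjustment 1 of the 8 was higher and 1 lower, Kdr at -0.21. The Gfap call ended without any 1 of 5 arrays, all but untreated replicate 1, and under the replicate block (adjusted p from 0.0517 to 0.142). The Cd68 call ended without NRG1 replicate 1 or 3 or untreated replicate 2 or 3, and after quantile normalization or centring of the arrays (adjusted p from 0.0569 to 0.13). The Dct call ended without NRG1 replicate 1 or untreated replicate 1 (0.0536 to 0.0594) and after quantile normalization (0.25). Its difference was -0.085 after quantile normalization. The part of these cell types in the values of Ogn and Prelp was not tested, and in bulk RNA fewer cells of a type cannot be told apart from less RNA per cell.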

How the data were processed

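Affymetrix Mouse Gene 1.0 ST arrays were made from 200 ng of total RNA, 3 per group, per the labels' protocols. The deposited table holds log2 values for 35557 probe sets, and the submitters' processing notes name RMA and GCOS, without settings or versions. That the scale is log2 follows from the range of the values, 2.34 to 14.6. Array medians lay between 6.99 and 7.07. An array has no read depth, and the number of arrays limits the precision.

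Gene names came from the platform annotation, checked against RefSeq. A single gene was listed for 21789 probe sets, several for 1621 and none for 12147. Per gene the probe set brightest by 6-array mean was kept, which left 19938 genes. Group means were compared per gene by limma 3.58.1 (R 4.3.3) with a 2-sided test, and p-values were adjusted over all genes (Benjamini-Hochberg; threshold 0.05). The fit was also run on simulated data with independent noise, which checks the code and not the calls reported here. Members and gene lists were chosen with earlier results of these data known. Named genes were the members, their neighbours, the 5 genes nearest in profile to Ogn, melanocyte markers, leading markers of other lists, and up to 4 called genes per list and direction with the largest changes. Hspg2, described with Prelp, was among these for the list of collagens and matrix proteins. Bmp1 and genes whose calls ended under an alternative were added after their values were seen. The rule for genes near the member with the largest rise was not applied, since no member rose. Of the neighbouring positions, those without a measured gene were left out.

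Protein sequences were not used here.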

Additional observations from a re-analysis of the deposited data

How the results depend on the processing

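Over 15 alternative settings (quantile normalization, centring of arrays, 2 filters on low levels, other uses of the probe sets, other variance models, the replicate block and leaving out each array), 149 of 150 counts of called genes stayed within 1.5 times the reported count. The exception was the count of called members, which was 1 in place of 2 when genes below the median level were left out, because Ogn, at a mean of 7.17, then fell just under the limit and was not tested. Ogn fell under every setting that kept it, with a log2 difference from -2.52 to -2.30, and was called in 14 of 14. Prelp was called in 15 of 15, from -0.57 to -0.48. Of 135 recomputed differences of members, 134 lay within 1 SD of the reported value and 0 reversed a call. Part of the 135 could not move and says nothing on stability. Each member had 1 probe set, so other uses of the probe sets changed no difference. The filters on level, the intensity trend with robust prior and the replicate block also leave a difference as it is. The difference of Omd, which was not called, went from -0.034 to 0.0144 after quantile normalization, and the cause was not tested. The labels do not say that replicate numbers pair the samples. Deviations from the group means had r over all genes of -0.095, -0.164 and 0.0739 between arrays of the same number. Between arrays of different numbers r ran from -0.196 to 0.247. With 3 arrays per group these values cannot decide whether the samples were paired. With the number as a block (replicate block), 2 members were called as before, and 3609 genes in all against 4168. Over the single arrays left out, that count ran from 3116 to 4397, and with array weights it was 6088. Rises made up 59% of the calls as reported, 48.5% after quantile normalization and 52.7% with array weights. Their share was 63% without NRG1 replicate 1. No other background correction was tried, since the table holds summarised values. Beyond the calls named in the results, those of Chpf, Adamts14 and Lrp6 also ended when single arrays were left out (1 to 4 arrays each, adjusted p from 0.0517 to 0.112), that of Adamts14 also under the replicate block (0.0666). Low signals limit what the 8 uncalled members can show.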
